A study of Mus musculus with 12 samples.

Results

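Kinesins are motor proteins that walk along microtubules on energy from ATP. Cargo kinesins carry vesicles, endosomes, mitochondria and messenger RNA, mostly towards the cell edge, while mitotic kinesins build the spindle, move chromosomes and help to close the dividing cell. Adult heart muscle cells have largely left the cell cycle and their microtubules run along and between the myofibrils, whereas fibroblasts placed in culture divide again.

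The family was taken as every row of the polyadenylated RNA count table whose symbol is Kif followed by a number, which gave 39 of 57683 rows. The rule names 11 of them mitotic (Kif4, Kif11, Kif14, Kif15, Kif18a, Kif18b, Kif20a, Kif20b, Kif22, Kif23 and Kif2c), and the other 28 are non-mitotic. Of these 28, a group of 13 cargo motors belongs to the kinesin-1, kinesin-2 and kinesin-3 classes, and 15 have other or mixed roles. The 15 include Kif22-ps, a pseudogene, and a second row named Kif7 that stands for 504 exon bases beside the main Kif7 row. Kifc1, Kifc2 and Kifc3, whose names lack the number, are treated below as partners.

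The samples came from the hearts of 3 female wild-type FVB/NJ mice, an inbred laboratory strain, aged 12 weeks and with no treatment named. Cardiomyocytes, freed by collagenase perfusion and parted from smaller cells by gravity, were lysed at once. Nonmyocytes from the same hearts were first grown into a culture made up mainly of fibroblasts; the labels differ on its passage, giving 2 passages in the protocol but P1 under cell type. Each fraction gave 3 libraries. The labels do not say which heart a numbered library came from, so p-values speak for the spread among libraries, and part of that spread may be technical.

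Total counts ran from 5956831 to 26851830 in the cardiomyocyte libraries and from 8126422 to 10792544 in the nonmyocyte libraries. Levels of 1 gene are given as CPM, the depth-scaled read count with library sizes adjusted by the trimmed mean of M values (TMM). A floor of 3 reads equalled 0.145 to 0.581 CPM in cardiomyocyte libraries and 0.224 to 0.290 CPM in nonmyocyte libraries, covering counting error only. Levels of different genes are set side by side only as RPKM, which is CPM per kilobase of exon in the deposited mm9 annotation. Log2 fold changes set cardiomyocytes over nonmyocytes, and the number behind ± is the standard error. A signed number in brackets after a gene's levels is its log2 fold change. Gene positions are on mm9. Errors of means are SDs over 3 libraries (n = 3). For the labelled cell types, 5 cardiomyocyte markers summed to 98284 to 131854 CPM in cardiomyocytes and 689 to 932 CPM in nonmyocytes. For 6 fibroblast markers the sums were 151 to 192 CPM in cardiomyocytes and 7677 to 9239 CPM in nonmyocytes. All 4 smooth muscle markers were lower in cardiomyocytes, with sums of 321 to 429.7 CPM there and 6239.55 to 7801 CPM in nonmyocytes. Macrophage markers summed to 15.1 to 19.2 CPM in cardiomyocytes and 57.6 to 70.7 CPM in nonmyocytes, with 2 of 2 tested lower (Csf1r -1.74, Cd68 -2.57). Emr1 and Ptprc were too low to be tested. Emr1 averaged 0.824 CPM in cardiomyocytes and 0.629 CPM in nonmyocytes, and Ptprc 0.450 CPM in cardiomyocytes and 0.494 CPM in nonmyocytes. The part of macrophage markers in the kinesin results was not tested. The 4 endothelial markers summed to 257 to 577 CPM in cardiomyocytes, against 40.9 to 53.4 CPM in nonmyocytes, and the 3 tested were higher. Pecam1 was at 0.0841 CPM in cardiomyocytes and 0 in nonmyocytes. Of its exon bases 81.1% are shared with other annotated genes, so its level is uncertain.

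Mitotic kinesin genes can carry in their promoters the cell cycle homology region, written TTTGAA or TTCGAA, often downstream of CCAAT boxes. Both are known from genes that peak late in the cell cycle, so the windows were searched for these letters on both strands. RefSeq promoter windows on GRCm38.p6 (250 bases before to 50 after the start) were matched by symbol for 31 of the 39 members. TTTGAA was found in 9 of the 10 mitotic windows and in 3 of 25 non-mitotic windows, against 17.9% of all 32851 windows. CCAAT stood in 6 of the 10 mitotic and 9 of the 25 non-mitotic windows, against 37.4% of all. Both together, where the first may be TTTGAA or TTCGAA, were in 6 mitotic and 3 non-mitotic windows, against 7.52% of all. Within the stretch from 60 bases before to 50 after the start, TTTGAA or TTCGAA was in 7 mitotic and 3 non-mitotic windows, against 5.90% of all. A match is only a match of letters. TTCGAA reads the same on both strands, and no motif contains another. The last 150 bases of the 7 mitotic windows with TTTGAA in that stretch are printed to show its place near the start; those of Kif15 and Kif20b hold no CCAAT, the other 5 do. Capitals mark TTTGAA (or TTCAAA, its reverse complement) and CCAAT (or ATTGG, its reverse complement). The 7 stretches, read 5′ to 3′ on the gene's strand, are:
Kif11 (chr19:37376282-37376431, plus strand): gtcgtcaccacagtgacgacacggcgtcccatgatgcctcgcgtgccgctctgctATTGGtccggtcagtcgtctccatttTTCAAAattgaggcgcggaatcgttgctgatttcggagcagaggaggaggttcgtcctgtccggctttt
Kif18b (chr11:102925075-102925224, minus strand): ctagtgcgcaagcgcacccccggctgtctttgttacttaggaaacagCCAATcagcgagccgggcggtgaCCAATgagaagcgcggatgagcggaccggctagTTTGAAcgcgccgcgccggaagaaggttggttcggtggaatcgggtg
Kif23 (chr9:61946750-61946899, minus strand): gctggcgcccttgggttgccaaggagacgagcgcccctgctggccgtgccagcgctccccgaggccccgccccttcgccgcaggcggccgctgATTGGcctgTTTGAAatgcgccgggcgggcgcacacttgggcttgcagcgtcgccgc
Kif4 (chrX:100625965-100626114, plus strand): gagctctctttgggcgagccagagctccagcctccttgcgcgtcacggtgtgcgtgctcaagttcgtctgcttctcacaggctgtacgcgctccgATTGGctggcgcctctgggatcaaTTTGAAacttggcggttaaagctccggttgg
Kif22 (chr7:127042371-127042520, minus strand): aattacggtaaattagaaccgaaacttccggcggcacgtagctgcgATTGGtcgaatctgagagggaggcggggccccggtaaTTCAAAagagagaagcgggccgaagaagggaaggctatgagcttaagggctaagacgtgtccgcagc
Kif20b (chr19:34922258-34922407, plus strand): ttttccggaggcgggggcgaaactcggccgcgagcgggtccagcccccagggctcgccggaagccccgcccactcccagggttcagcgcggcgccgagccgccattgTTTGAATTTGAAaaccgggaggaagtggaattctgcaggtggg
Kif15 (chr9:122950981-122951130, plus strand): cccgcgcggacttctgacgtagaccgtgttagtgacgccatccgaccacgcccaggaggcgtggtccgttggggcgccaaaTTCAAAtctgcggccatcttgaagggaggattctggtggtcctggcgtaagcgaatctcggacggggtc
In Kif18b a pair of CCAAT boxes precedes TTTGAA, whose first base lies at position 4 counted from the start as 1. Kif20b holds a tandem repeat of TTTGAA, with first bases at positions 8 and 14. Kif14 and Kif2c hold TTTGAA as well, more than 100 bases before the start, and Kif18a had no match. Among non-mitotic members TTTGAA was found for Kif1a (in 1 of its 2 windows), Kif26b and Kif27, and TTCGAA for Kif24.

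Of the 39 kinesins 32 had enough reads to be tested, and 30 of them were called different between the fractions, 9 higher and 21 lower in cardiomyocytes (edgeR quasi-likelihood test, Benjamini-Hochberg adjusted p under 0.05), beside 63.7% of all genes tested. The mitotic kinesins were scarce in cardiomyocytes and clearly measurable in cultured nonmyocytes. All 11 were called lower in cardiomyocytes, at a median log2 fold change of -3.76. Over all 14734 genes tested, 32.1% were called lower, 31.6% higher, and the median was -0.02. No cardiomyocyte library overlapped a nonmyocyte library for any of the 11, beside 70.4% of all genes tested. The count of 11 needs care, because 10 of these genes passed the filter on low counts through the nonmyocyte libraries alone. That is, all nonmyocyte libraries reached its cutoff but not all cardiomyocyte libraries did. Only Kif20a passed in both fractions. This route tilts the count towards lower calls without fixing any of them, and Kif5c, which passed in the same way, was not called. It tilts the libraries towards not overlapping as well, and those of Kif5c did not overlap either. Without the filter all 11 were called lower as well. Summed over the 11 genes, mitotic kinesin RNA stood at 2.33 ± 0.527 RPKM in cardiomyocytes and 27.4 ± 3.90 RPKM in nonmyocytes, 11.7 times more in nonmyocytes. In such bulk RNA, fewer dividing cells and less RNA per cell cannot be told apart, nor can cell type and culture.

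**Figure D1:**
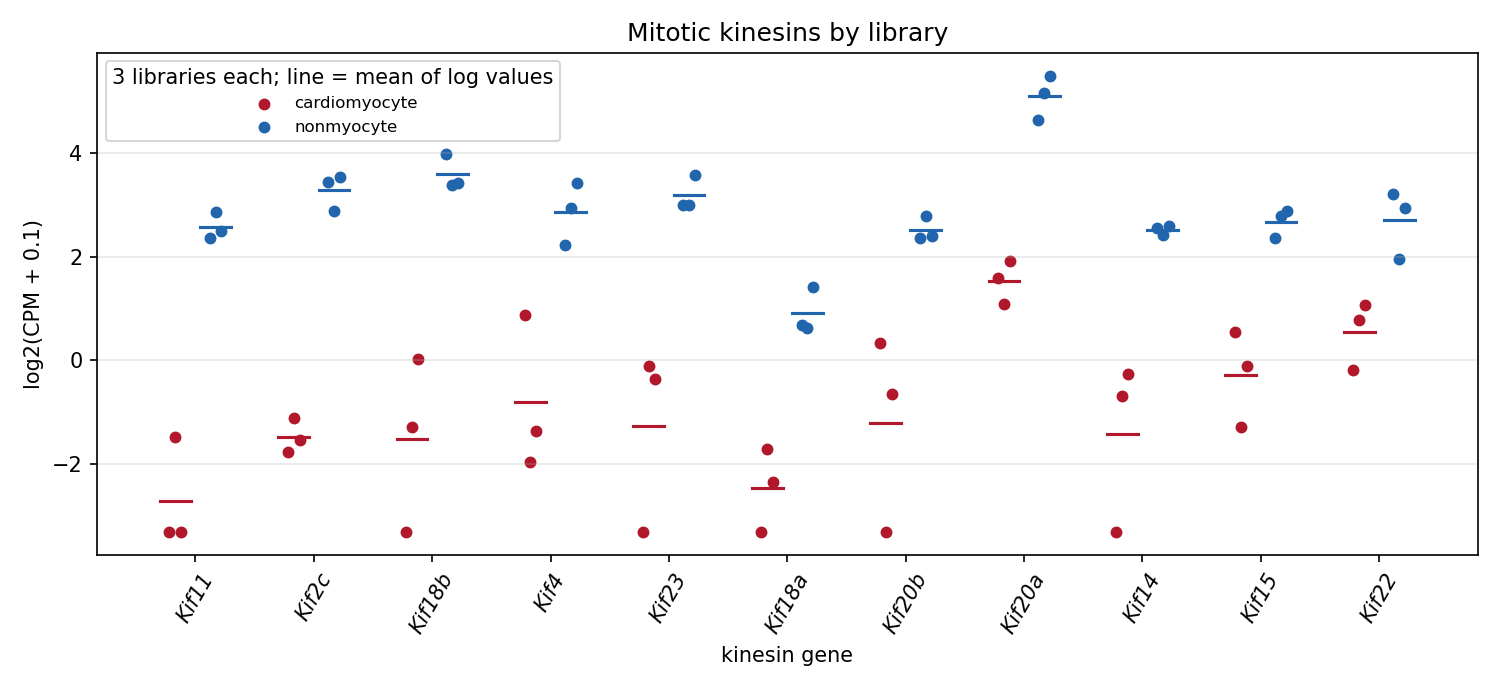
Levels of the 11 mitotic kinesins as log2(CPM + 0.1) in each library, with cardiomyocytes left of nonmyocytes for each gene and a line at the mean of the log values. Every cardiomyocyte library lies below every nonmyocyte library for all 11 genes. Of these, 10 passed the filter on low counts through the nonmyocyte libraries alone, which tilts towards such a gap.

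Among the motors that shape the spindle, Kif11 had the most negative fitted value of the class, a rank that did not hold without cardiomyocyte library 3 or with counts thinned to the shallowest library total. It pushes the spindle poles apart and is the target of a class of drugs that stop mitosis, and lies on chromosome 19 (37450893 to 37496349, plus strand). Kif11 held 0, 0.259 and 0 CPM in cardiomyocyte libraries 1 to 3, against 5.001, 7.15 and 5.51 CPM in nonmyocyte libraries 1 to 3. The edgeR quasi-likelihood test put its log2 fold change at -5.64 ± 0.80 (adjusted p = 3.89e-05), and the only 5 cardiomyocyte reads of this gene all fell in library 2. Kif15, which can stand in for Kif11 in a formed spindle, held 1.36, 0.311 and 0.824 CPM in cardiomyocytes, against 5.001, 6.76 and 7.22 CPM in nonmyocytes, a log2 fold change of -3.10 ± 0.55 (edgeR adjusted p = 0.000260). Kif2c, a depolymerase that corrects wrong attachments at centromeres, held 0.194, 0.363 and 0.242 CPM in cardiomyocytes, against 10.7, 7.25 and 11.6 CPM in nonmyocytes, a log2 fold change of -5.07 ± 0.48. The length of microtubules at kinetochores is set by Kif18a and that of astral microtubules by Kif18b. Kif18a held 0, 0.207 and 0.0970 CPM in cardiomyocytes, against 1.49, 1.45 and 2.56 CPM in nonmyocytes. This was the lowest mitotic level in nonmyocytes, per length too, and the fold rests on 6 cardiomyocyte reads (-3.76 ± 0.82, edgeR adjusted p = 0.00130). Kif18b held 0, 0.311 and 0.921 CPM in cardiomyocytes, against 15.7, 10.3 and 10.6 CPM in nonmyocytes, a log2 fold change of -4.54 ± 0.57. Shared exon bases made up 42.75% for Kif18b, 23.15% for Kif2c and 19.8% for Kif18a, mostly with catalogue entries that had no reads. Their levels, also per length, are uncertain to that extent. Cardiomyocyte library 1 had no read of Kif11, Kif18a or Kif18b, nor of Kif14 or Kif23 described below, while no nonmyocyte library lacked any mitotic kinesin.

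The chromokinesins Kif4 and Kif22 bind chromosome arms, and both were lower in cardiomyocytes. Kif4 held 1.74, 0.155 and 0.291 CPM in cardiomyocytes, against 4.55, 7.54 and 10.6 CPM in nonmyocytes, where cardiomyocyte library 1 stood above libraries 2 and 3. Its log2 fold change of -3.89 ± 0.73 (edgeR adjusted p = 0.000433) became -4.99 without that library, and -3.26 without cardiomyocyte library 2. Of its exon bases 19.9% are shared, mostly with Pdzd11 on the other strand, which held 22, 191 and 149 reads in cardiomyocytes, against 212, 234 and 308 reads in nonmyocytes. Kif22 held 0.775, 1.61 and 1.99 CPM in cardiomyocytes, against 9.11, 3.77 and 7.61 CPM in nonmyocytes, the smallest difference of the class (-2.13 ± 0.48, edgeR adjusted p = 0.00159). For Kif22, 60.2% of the exon bases are shared with a noncoding catalogue entry that held 0 to 9 reads per library, so its level is uncertain. The pseudogene row Kif22-ps had only 3 reads, all in nonmyocyte library 1, and of 1935 stretches of 50 bases in that pseudogene 2 also occur in Kif22 transcripts (GENCODE M21).

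Motors of the spindle midzone and of cell separation made up the rest. Kif20a, which brings the chromosomal passenger complex to the midzone, had the highest mean level per length of the mitotic kinesins in both fractions, at 0.844 ± 0.245 RPKM in cardiomyocytes and 10.3 ± 2.96 RPKM in nonmyocytes. Its CPM values were 2.91, 2.02 and 3.68 CPM in cardiomyocytes, against 24.7, 35.8 and 44.8 CPM in nonmyocytes, and its log2 fold change was -3.61 ± 0.33 (edgeR adjusted p = 6.35e-07). Since 37.0% of its exon bases lie over Cdc23 on the other strand and the libraries do not keep the strand, reads of the pair cannot be fully told apart. Cdc23 itself held 102, 553 and 652 reads in cardiomyocytes, against 525, 287 and 365 reads in nonmyocytes. Kif23, the motor of centralspindlin, held 0, 0.829 and 0.679 CPM in cardiomyocytes, against 7.91, 7.92 and 11.8 CPM in nonmyocytes (-3.89 ± 0.55). Kif14, which works with Prc1 and citron kinase in the last step of division, held 0, 0.518 and 0.727 CPM in cardiomyocytes, against 5.75, 5.22 and 5.90 CPM in nonmyocytes (-3.45 ± 0.60). Kif20b, another motor of cell separation, held 1.16, 0 and 0.533 CPM in cardiomyocytes, against 5.001, 6.76 and 5.20 CPM in nonmyocytes (-3.67 ± 0.81). Leaving out 1 cardiomyocyte library moved the linear fold of Kif20b by over 1.5 times, to log2 values of -4.30 without library 1 and -2.89 without library 2. The same held for Kif18b without library 3 (-5.63), Kif18a without library 2 (-4.47) and Kif11 without library 3 (-4.85), and without library 2 Kif11 had no cardiomyocyte read left. All 11 stayed called lower in each of the 6 fits that left out 1 library.

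The non-mitotic kinesins did not move in 1 direction. Of 21 tested members 9 were called higher and 10 lower in cardiomyocytes, at a median log2 fold change of -0.66, and 2 were not called. Libraries of the fractions did not overlap for 20 of the 21. Over all genes tested 31.6% were called higher and 32.1% lower, and 70.4% did not overlap. The cargo motors had 5 genes higher and 5 lower of 12 tested (median -0.37), and the rest 4 higher and 5 lower of 9 (median -1.05). A total of 17 of the 21 passed the filter in both fractions, Kif6 through cardiomyocytes alone, and Kif5c, Kif9 and Kif24 through nonmyocytes alone. Log2 fold changes spanned -6.58 for Kif1a to 3.88 for Kif6, so the class holds both the largest fall and the largest rise of the family. Summed RNA of the 28 non-mitotic genes was 369 ± 33.4 RPKM in cardiomyocytes and 242 ± 6.61 RPKM in nonmyocytes.

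**Figure D2:**
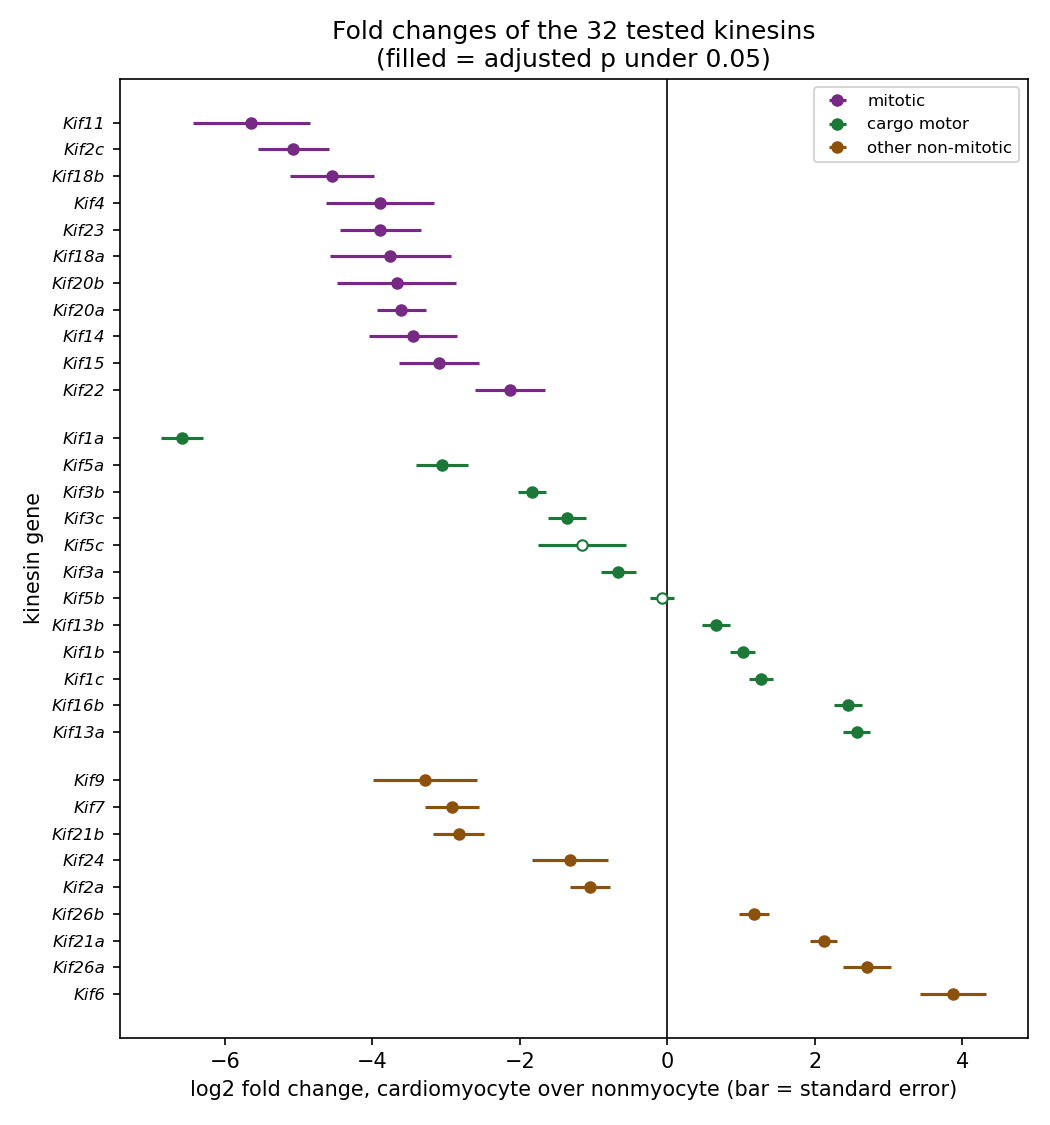
Log2 fold changes (cardiomyocyte over nonmyocyte, horizontal axis) with standard errors for the 32 tested kinesins, grouped by role, with open circles for genes not called. All mitotic kinesins lie left of 0, whereas cargo motors run from -6.58 (Kif1a) to 2.57 (Kif13a).

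Kinesin-3 motors are long-range carriers of vesicles and endosomes, and they gave the widest split among cargo motors. Kif1c, which carries secretory and integrin-bearing vesicles, was the most abundant kinesin of either fraction, at 216 ± 28.0 RPKM in cardiomyocytes and 89.5 ± 4.32 RPKM in nonmyocytes, and lies on chromosome 11 (70514050 to 70545466, plus strand). It held 1398, 1742 and 1404 CPM in cardiomyocytes, against 660.5, 601 and 622 CPM in nonmyocytes. The difference was larger than the spread between libraries, with a log2 fold change of 1.27 ± 0.16 (edgeR adjusted p = 1.68e-05), and 0.59 when library totals alone set the scale. Kif13a, a motor of recycling endosomes on chromosome 13 (46844456 to 47025087, minus strand), held 237, 316 and 312 CPM in cardiomyocytes, against 45.8, 44.6 and 55.8 CPM in nonmyocytes. It had the largest rise of the cargo motors (2.57 ± 0.18, edgeR adjusted p = 5.36e-08). Its paralog Kif13b, which carries the scaffold Dlg1, held 44.2, 44.0 and 51.3 CPM in cardiomyocytes, against 27.2, 27.4 and 33.7 CPM in nonmyocytes. That difference was smaller (0.66 ± 0.19, edgeR adjusted p = 0.00710) and did not hold with library totals alone, at -0.014 where the median of all genes was -0.70. Kif16b, which moves early endosomes, held 88.2, 105 and 113 CPM in cardiomyocytes, against 16.3, 18.6 and 21.5 CPM in nonmyocytes (2.44 ± 0.19, edgeR adjusted p = 1.30e-07). Kif1b, known as a carrier of mitochondria and of synaptic vesicle precursors, held 356, 428 and 503 CPM in cardiomyocytes, against 215, 214 and 205 CPM in nonmyocytes (1.02 ± 0.17, edgeR adjusted p = 0.000132). With library totals alone Kif1b kept its direction at 0.34 but was not called (edgeR adjusted p = 0.0518).

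Kif1a was the exception among kinesin-3 genes. It is best known as the carrier of synaptic vesicle precursors in neurons and lies on chromosome 1 (94914858 to 94998430, minus strand). Kif1a held 3.68, 4.04 and 1.84 CPM in cardiomyocyte libraries 1 to 3, against 275, 290.5 and 322 CPM in nonmyocyte libraries 1 to 3. Its log2 fold change of -6.58 ± 0.28 (edgeR adjusted p = 5.35e-10) was the steepest of the family, with every nonmyocyte library far above every cardiomyocyte library. The cardiomyocyte level was 1.08% of the nonmyocyte level, beside 1.51% to 19.2% for the 6 fibroblast markers. Per length, Kif1a stood at 0.585 ± 0.216 RPKM in cardiomyocytes and 54.3 ± 4.38 RPKM in nonmyocytes, which made it the second most abundant kinesin of the nonmyocyte culture. Among markers of neurons and glia, the tubulin gene Tubb3 was also lower in cardiomyocytes (0.300 ± 0.111 CPM in cardiomyocytes and 24.2 ± 1.91 CPM in nonmyocytes). Nefl and Snap25 averaged 0.312 and 0.436 CPM in cardiomyocytes, against 0 and 0.129 CPM in nonmyocytes, at or near the floor. For Nefl 32.8% of the exon bases are shared with other annotated genes, so its level is uncertain. The whole list, with 6 of 7 genes in the table, summed to 4.65 to 4.90 CPM in cardiomyocytes and 25.8 to 30.8 CPM in nonmyocytes, and its part in the Kif1a result was not tested.

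**Figure D3:**
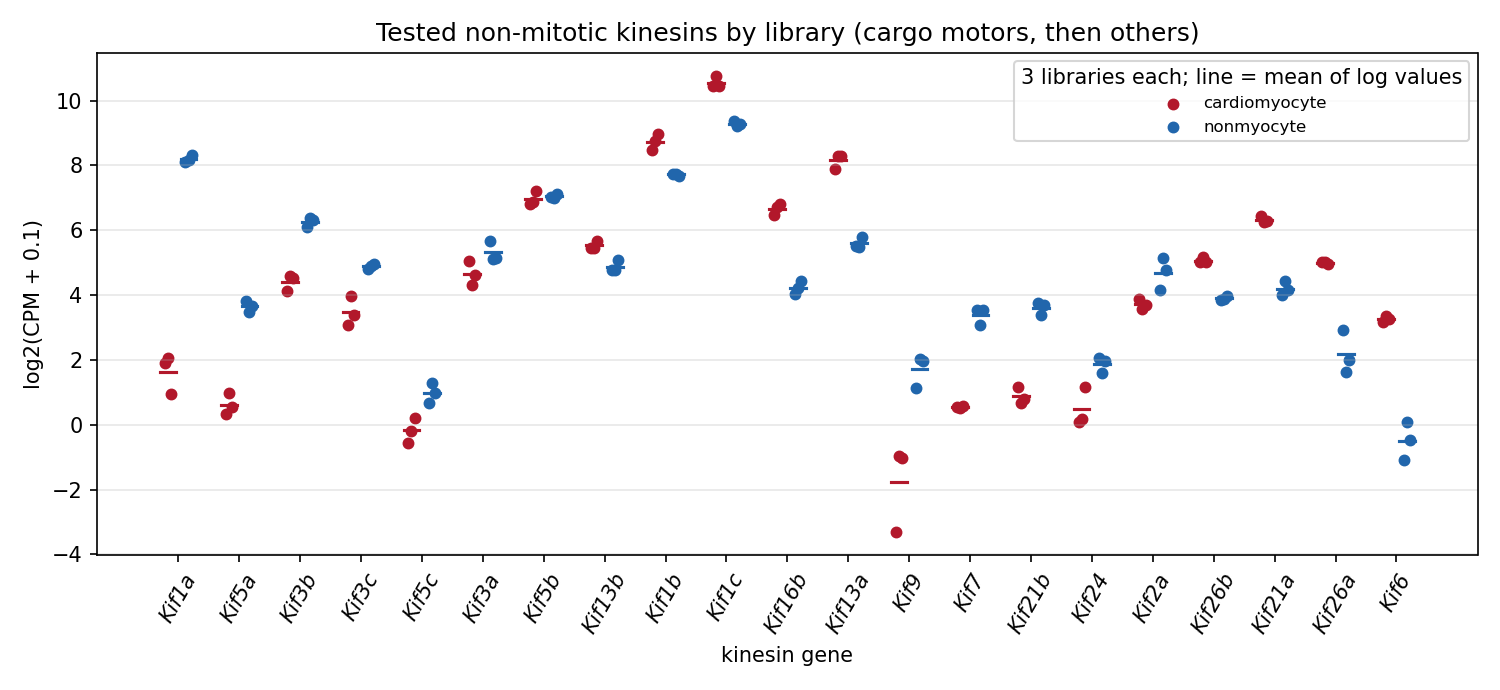
Levels of the 21 tested non-mitotic kinesins as log2(CPM + 0.1) in each library, with cardiomyocytes left of nonmyocytes for each gene. Kif1a shows the widest gap, Kif5b overlaps between fractions, and Kif1c is the highest in both.

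Kinesin-1 is the classic cargo motor of a heavy chain dimer and light chains, and of its heavy chains Kif5a was called lower in cardiomyocytes while Kif5b and Kif5c were not called. Kif5b, the heavy chain that most cells use, held 112, 117 and 147 CPM in cardiomyocytes, against 131, 127 and 139 CPM in nonmyocytes. The fractions overlapped and the gene was not called (-0.074 ± 0.16, edgeR adjusted p = 0.710), though with library totals alone it was called lower at -0.75. Of its exon bases 25.9% are shared with catalogue entries holding 0 to 19 reads. Kif5a, a heavy chain mostly studied in neurons, held 1.16, 1.86 and 1.36 CPM in cardiomyocytes, against 14.1, 11.1 and 12.6 CPM in nonmyocytes and was called lower (-3.05 ± 0.36, edgeR adjusted p = 6.82e-06). Kif5c, another neuronal heavy chain, was low in both fractions, at 0.808 ± 0.244 CPM in cardiomyocytes and 1.89 ± 0.414 CPM in nonmyocytes, and was not called (-1.16 ± 0.59, edgeR adjusted p = 0.106). None of the 50-base stretches of Kif5a and Kif5c transcripts occurs in another gene, and 3.90% of those of Kif5b do.

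Light chains, which bind the cargo, shifted in their make-up. Klc1 was lower (118 ± 2.24 CPM in cardiomyocytes and 203 ± 5.61 CPM in nonmyocytes; -0.79) and so was Klc3 (0.130 ± 0.183 CPM in cardiomyocytes and 4.95 ± 1.49 CPM in nonmyocytes; -4.81), while Klc2 (139 ± 17.9 CPM in cardiomyocytes and 53.1 ± 13.2 CPM in nonmyocytes; 1.39) and Klc4 (63.2 ± 3.93 CPM in cardiomyocytes and 17.7 ± 1.97 CPM in nonmyocytes; 1.83) were higher in cardiomyocytes, all at edgeR adjusted p of 0.000368 or less. Klc3 passed the filter on low counts through the nonmyocyte libraries alone. Klc2 and Klc4 together stood per length at 2.10, 2.32 and 1.93 times Klc1 in cardiomyocyte libraries, against 0.518, 0.337 and 0.386 times in nonmyocyte libraries. Heavy chains together stood at 0.271, 0.260 and 0.362 of the light chains in cardiomyocytes, against 0.394, 0.411 and 0.442 in nonmyocytes. Neither ratio overlapped between fractions; these ratios were picked after the values were seen and were not tested.

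Kinesin-2 drives transport into cilia as Kif3a paired with Kif3b, or pairs Kif3a with Kif3c, with Kifap3 as accessory subunit, and the 3 motor genes were all lower in cardiomyocytes. Kif3b held 17.4, 23.8 and 22.9 CPM in cardiomyocytes, against 68.6, 83.01 and 79.0 CPM in nonmyocytes. This was the clearest of them (-1.83 ± 0.19, edgeR adjusted p = 2.21e-06). Kif3c held 8.33, 15.5 and 10.4 CPM in cardiomyocytes, against 28.1, 30.1 and 31.4 CPM in nonmyocytes (-1.36 ± 0.26, edgeR adjusted p = 0.000473), and 60.8% of its exon bases overlap entries of the annotation with 0 to 21 reads each. Kif3a held 33.3, 19.7 and 24.4 CPM in cardiomyocytes, against 51.1, 34.8 and 35.4 CPM in nonmyocytes. The lowest nonmyocyte library lay just above the highest cardiomyocyte library, and the call (-0.66 ± 0.24, edgeR adjusted p = 0.0279) did not hold in the fits lacking cardiomyocyte library 2 (adjusted p = 0.132) or 3 (0.0810), nor in those lacking nonmyocyte library 1 (0.243), 2 (0.0623) or 3 (0.0636). In these 5 fits its log2 fold change was -0.50, -0.62, -0.38, -0.70 and -0.69, in the same order. Of its exon bases 45.0% are shared, mostly with catalogue entries that had no reads. The accessory subunit Kifap3 held 30.7 ± 4.87 CPM in cardiomyocytes and 27.6 ± 1.71 CPM in nonmyocytes and was not called (0.16 ± 0.20, edgeR adjusted p = 0.492). Kif3a and Kif3b together stood per length at 1.39, 0.953 and 0.945 times Kifap3 in cardiomyocytes, against 2.85, 3.02 and 3.10 times in nonmyocytes. This ratio too was picked after the values were seen and was not tested, and the shared bases of Kif3a make it uncertain. Kif17, a kinesin-2 of cilia and dendrites, was not tested, with 5, 1 and 0 reads in cardiomyocytes, against 17, 2 and 0 reads in nonmyocytes.

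Per length, the pool of cargo kinesin RNA was made of different motors in the fractions. In cardiomyocytes Kif1c took 62.9% ± 3.78 of the summed RPKM of the 13 cargo genes, followed by Kif13a with 12.2% ± 1.08. Kif5b, with 7.71% ± 1.27, and Kif1b, with 7.11% ± 1.09, came next there and did not differ beyond their spread. In nonmyocytes Kif1c took 39.6%, Kif1a 24.0% and Kif5b 12.3%, and Kif3b (6.04%) and Kif1b (5.32%) followed. Kif1a made up 0.171% of the pool in cardiomyocytes. These levels are a description of the order, with no test between genes. The shares also rest on the annotated exon length, such as 17608 bases for Kif1b and 5447 for Kif1a. Shared exon bases made up 60.8% for Kif3c, 45.0% for Kif3a, 25.9% for Kif5b, 16.8% for Kif1b and 12.9% for Kif1c. For Kif13a and Kif1a the figure was 0. The order is uncertain to that extent.

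**Figure D4:**
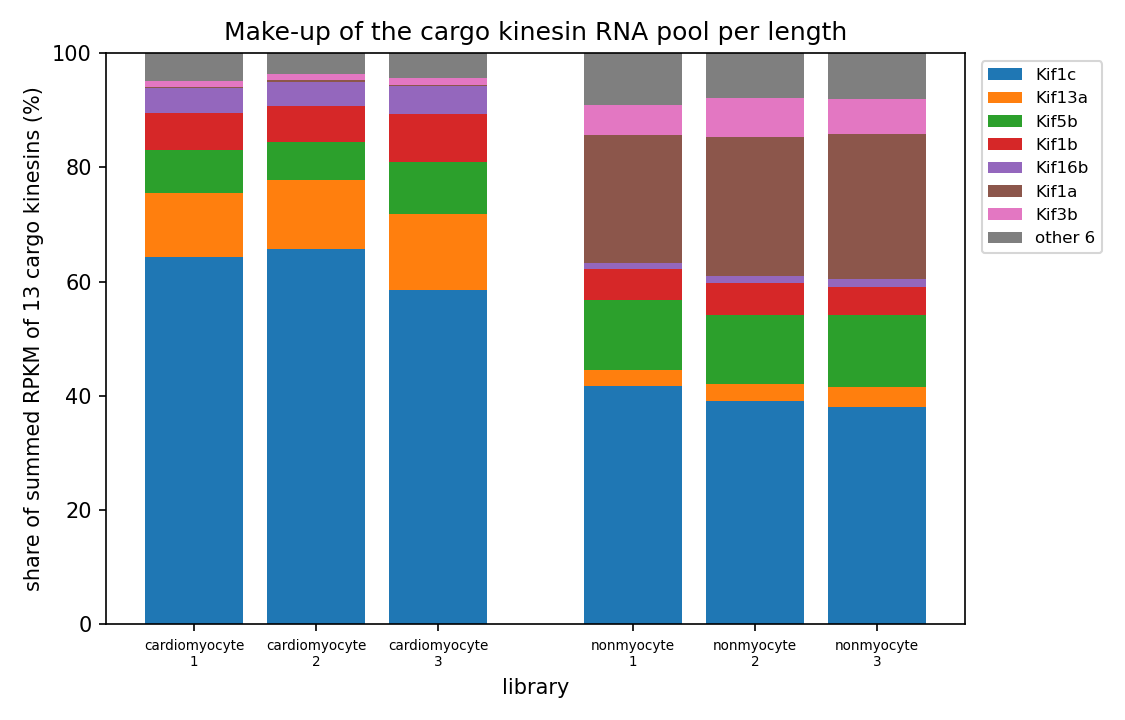
Share of each cargo kinesin in the summed RPKM of all 13 cargo kinesins, 1 stacked bar per library with cardiomyocytes on the left. Kif1c is the largest part in all 6 libraries, Kif13a the next in cardiomyocytes and Kif1a the next in nonmyocytes.

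The remaining non-mitotic members also split. Kif6, a little-studied motor, had the largest rise of the family and lies on chromosome 17 (49754461 to 50049172, plus strand). Kif6 held 8.91, 10.2 and 9.41 CPM in cardiomyocyte libraries 1 to 3, against 0.373, 0.966 and 0.621 CPM in nonmyocyte libraries 1 to 3. Its nonmyocyte reads numbered 5, 10 and 8, and the log2 fold change was 3.88 ± 0.45 (edgeR adjusted p = 5.96e-06). The nonmyocyte level was 6.87% of the cardiomyocyte level, beside 0.637% to 0.762% for the 5 cardiomyocyte markers. Kif21a, which curbs microtubule growth at the cell edge and is mutated in a human eye muscle disorder, held 87.2, 75.6 and 77.2 CPM in cardiomyocytes, against 16.0, 21.5 and 17.6 CPM in nonmyocytes (2.12 ± 0.19, edgeR adjusted p = 4.84e-07). Its paralog Kif21b went the other way, at 2.13, 1.502 and 1.65 CPM in cardiomyocytes, against 13.3, 10.4 and 12.7 CPM in nonmyocytes (-2.83 ± 0.35, edgeR adjusted p = 1.16e-05).

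Kif26a and Kif26b are atypical kinesins studied in mouse development, and both were higher in cardiomyocytes. Kif26a held 32.4, 32.1 and 30.9 CPM in cardiomyocytes, against 7.54, 2.996 and 3.88 CPM in nonmyocytes (2.71 ± 0.33, edgeR adjusted p = 9.00e-06). Kif26b held 32.4, 36.0 and 32.1 CPM in cardiomyocytes, against 14.3, 14.7 and 15.5 CPM in nonmyocytes (1.18 ± 0.20, edgeR adjusted p = 0.000208), or 0.50 with library totals alone. Endothelial markers, which rose with these genes at a list median of 2.90 over 3 tested, were given above, and their part in the rises of these and the 7 other kinesins called higher was not tested.

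Kif7, a ciliary regulator of Hedgehog signalling, held 1.36, 1.35 and 1.41 CPM in cardiomyocytes, against 11.5, 8.41 and 11.5 CPM in nonmyocytes (-2.92 ± 0.37, edgeR adjusted p = 1.33e-05). Cardiomyocyte libraries were alike here and all below the nonmyocyte ones. In GENCODE M21 transcripts 16.1% of its 50-base stretches also occur in 9330171B17Rik or Ticrr. The deposited annotation models the gene differently, with 1.24% of the exon bases of this row shared and the overlap with 9330171B17Rik on the second Kif7 row. How far shared stretches touch the reads of this row was not tested. Kif9, known from mouse sperm flagella, held 0, 0.414 and 0.388 CPM in cardiomyocytes, against 2.09, 3.96 and 3.80 CPM in nonmyocytes (-3.29 ± 0.70, edgeR adjusted p = 0.00116). Kif24, a centriolar depolymerase, held 0.969, 1.04 and 2.13 CPM in cardiomyocytes, against 4.03, 2.90 and 3.80 CPM in nonmyocytes, and its call (-1.32 ± 0.51, edgeR adjusted p = 0.0374) was lost without cardiomyocyte library 2 (0.141) or any nonmyocyte library (0.122, 0.0614 and 0.113 without library 1, 2 and 3), all adjusted p. It was also lost with the filter removed (adjusted p = 0.104). Kif2a, a depolymerase of neurons and spindles, held 14.5, 11.9 and 12.8 CPM in cardiomyocytes, against 17.8, 35.7 and 27.2 CPM in nonmyocytes (-1.05 ± 0.27, edgeR adjusted p = 0.00470), and was not called without nonmyocyte library 2 (edgeR adjusted p = 0.0508). Of its 50-base stretches 19.7% also occur in other genes, chiefly Dimt1.

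Besides Kif17, the members left untested were Kif19a, Kif12, Kif27, Kif2b, Kif22-ps and the second Kif7 row. None of the 7 exceeded 17 reads in any library, and Kif2b had no read in any. Kif19a, which trims cilia in mice, held 0, 4 and 7 reads in cardiomyocytes, against 16, 0 and 11 reads in nonmyocytes. Kif12 held 0, 3 and 0 reads in cardiomyocytes, against 1, 0 and 6 reads in nonmyocytes. Kif27, a relative of Kif7, held 0, 0 and 2 reads in cardiomyocytes, against 7, 11 and 3 reads in nonmyocytes. The second Kif7 row, ENSMUSG00000030547, held 3 reads in cardiomyocytes and 6 in nonmyocytes, and 87.9% of its bases lie over another gene on the other strand.

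Genes that work with kinesins were read from lists chosen with earlier results of these data known, so each list is given by its counts and its median beside the all-gene median of -0.02. Over all genes tested, as given above, 31.6% were called higher, 32.1% lower and 63.7% either way. Among the spindle and cytokinesis partners 20 of 20 tested were called lower, at a median of -4.15. Of these, 17 passed the filter on low counts through the nonmyocyte libraries alone, as most mitotic kinesins did. That route tilts the count towards lower calls. Ckap2, a spindle protein, had the largest fall (0.939 ± 0.423 CPM in cardiomyocytes and 46.0 ± 2.69 CPM in nonmyocytes; -5.47) and, per length, the highest level of the list in nonmyocytes (0.364 ± 0.164 RPKM in cardiomyocytes and 17.8 ± 1.04 RPKM in nonmyocytes). Incenp, a subunit of the chromosomal passenger complex, had the highest level per length of the list in cardiomyocytes (1.84 ± 0.610 RPKM in cardiomyocytes and 13.9 ± 0.997 RPKM in nonmyocytes), and Cenpe, the kinetochore kinesin, stood at 1.14 ± 0.280 CPM in cardiomyocytes and 25.9 ± 4.66 CPM in nonmyocytes (-4.56). Among 9 tested proliferation markers 8 were lower, with a median of -3.61, among them Top2a (2.83 ± 0.256 CPM in cardiomyocytes and 60.2 ± 7.64 CPM in nonmyocytes) and, with the largest fall, Rrm2 (-4.80), and Pcna was not called (-0.54). Here 4 of the 9 passed the filter through the nonmyocyte libraries alone, as did the minus-end motor Kifc1. The 3 minus-end motors went both ways. The spindle motor Kifc1 was lower (0.875 ± 0.485 CPM in cardiomyocytes and 9.86 ± 1.51 CPM in nonmyocytes, -3.33). Kifc3 (191 ± 17.97 CPM in cardiomyocytes and 52.2 ± 4.11 CPM in nonmyocytes, 1.87) and Kifc2 (1.84) were higher.

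Cargo adaptors were mostly higher in cardiomyocytes, with 13 of 16 tested called higher and 3 lower, at a median of 1.35 over the list, beside 31.6% higher and 32.1% lower over all genes. The 4 mitochondrial adaptors, which link mitochondria to kinesin-1, were all called higher, namely Rhot2 (397 ± 55.4 CPM in cardiomyocytes and 34.1 ± 6.86 CPM in nonmyocytes; 3.54), Trak1 (622 ± 120.4 CPM in cardiomyocytes and 77.6 ± 8.65 CPM in nonmyocytes; 3.004), Trak2 (2.46) and Rhot1 (1.56). The microtubule-bound recruiter Mtap7 had the largest rise (25.2 ± 5.71 CPM in cardiomyocytes and 2.12 ± 0.686 CPM in nonmyocytes; 3.56) and its relative Mtap7d1 the highest level per length in cardiomyocytes (265 ± 30.1 RPKM in cardiomyocytes and 101 ± 11.2 RPKM in nonmyocytes). The lysosomal GTPase gene Arl8a (14.2 ± 3.37 CPM in cardiomyocytes and 242 ± 61.4 CPM in nonmyocytes; -4.06), Fez1 (0.757 ± 0.184 CPM in cardiomyocytes and 12.9 ± 1.71 CPM in nonmyocytes; -4.16) and Mapk8ip1 (-1.502) were lower. Highest edgeR adjusted p among the 16 was 0.0201, for Arl8b. Fez1 passed the filter on low counts through the nonmyocyte libraries alone.

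Dynein and dynactin, which carry cargo the opposite way, had 2 of 15 tested genes higher and 8 lower, at a median of -0.44, a share of calls near the 63.7% over all genes. The heavy chain Dync1h1 held 973 ± 129 CPM in cardiomyocytes and 1365 ± 141 CPM in nonmyocytes (-0.49). The light chain Dynll2, with the highest level per length of the list in cardiomyocytes (178 ± 3.33 RPKM in cardiomyocytes and 86.9 ± 8.72 RPKM in nonmyocytes), was higher (1.03) and its paralog Dynll1 lower (24.9 ± 6.40 CPM in cardiomyocytes and 109 ± 9.03 CPM in nonmyocytes; -2.12). Among 16 genes of intraflagellar transport 3 were higher and 8 lower, at a median of -0.98, running from Ift74 (-2.97) to Ift81 (41.2 ± 4.73 CPM in cardiomyocytes and 8.16 ± 1.77 CPM in nonmyocytes; 2.34). Per length, Ift27 led in nonmyocytes (9.02 ± 2.98 RPKM in cardiomyocytes and 60.9 ± 8.13 RPKM in nonmyocytes; -2.71). In the Hedgehog list, the pathway that Kif7 serves, 4 of 5 tested genes were lower, with Gli3 the furthest (1.18 ± 0.522 CPM in cardiomyocytes and 34.8 ± 2.09 CPM in nonmyocytes; -4.72) and Smo the highest per length (4.08 ± 0.381 RPKM in cardiomyocytes and 23.0 ± 3.61 RPKM in nonmyocytes; -2.50), while Ptch1 was not called (0.17). Of the 5 tested Hedgehog genes 2 passed the filter on low counts through the nonmyocyte libraries alone, as did 3 of the 16 intraflagellar transport genes. The ciliated cell marker Foxj1 was at 0 in cardiomyocytes and averaged 0.0517 CPM in nonmyocytes.

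**Figure D5:**
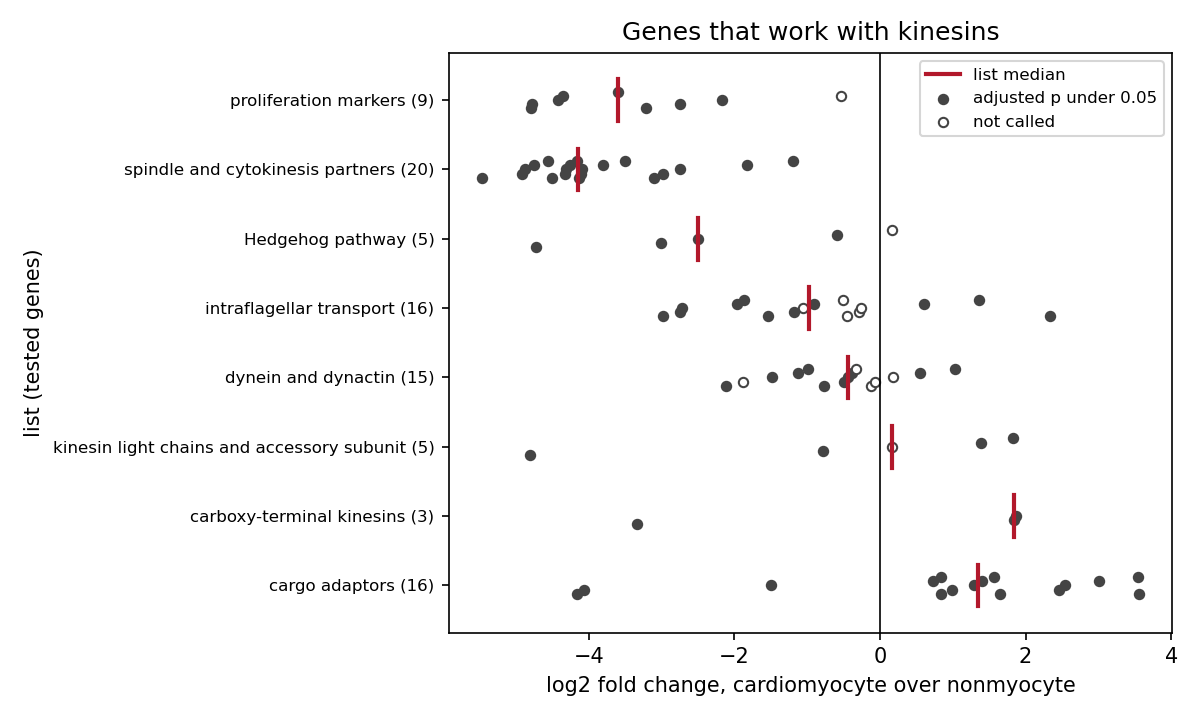
Log2 fold changes (cardiomyocyte over nonmyocyte) of the tested genes in 8 lists of kinesin partners, with a red line at each list's median and open circles for genes not called. Spindle partners (-4.15) and proliferation markers (-3.61) lie far left, and cargo adaptors have the highest median of the lists with over 5 genes (1.35).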

How the data were processed

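Polyadenylated RNA of 6 libraries was analysed; small RNA libraries were not used here. Per the labels, oligo(dT)-selected RNA went into single-end libraries without strand information. The deposited table holds whole-number counts per gene, which the authors did not normalise; their positions come from the deposited mm9 annotation. The submitters' processing notes name Bowtie, TopHat 1.3.0, HTSeq, DESeq and edgeR without roles; for the counting rule the sources used here give nothing. Exon bases shared with other genes were computed from that annotation.

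Counts were filtered with filterByExpr (minimum count 10), scaled by TMM and tested over all genes with edgeR 4.0.16 (robust quasi-likelihood, two-sided) in R 4.3.3. A Benjamini-Hochberg adjusted p under 0.05 over all 14734 genes was called. The test was checked on simulated data in which 200 genes changed, equally in both directions. That is far fewer than were called here, so the check does not cover the choice of scaling. Alternatives were other scalings, no filter, DESeq2 1.42.0, limma 3.58.1 voom, thinning to the shallowest library total, a replicate block and leaving out each library. The family, its classes and all lists were chosen with earlier results of these data known. Every member is named. Per-library values are given for mitotic members and for others at a mean of 5 CPM or more in either fraction, plus Kif9 and Kif24, added after their values were seen. Partner lists are represented by members with the highest level per length and the largest folds, with further examples chosen after their values were seen. Protein sequences were not used here.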

Additional observations from a re-analysis of the deposited data

How the results depend on the processing

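Over 14 alternatives the 32 tested kinesins gave 448 fold changes, of which 428 kept their direction and their side of the threshold. Mitotic kinesins were called lower in 11 of 11 cases under every alternative, and 9 non-mitotic members were higher under all but library totals, which gave 7. With library totals the median over all genes moved to -0.70, 30.9% of calls were higher instead of 49.6%, and 7106 genes were called lower. Upper-quartile scaling moved that median to -0.11. With library totals the median fold change was -4.46 for mitotic and -1.32 for non-mitotic kinesins, Kif13b turned to -0.014, Kif1b lost its call, and Kif5b (-0.75) and Kif5c (-1.85) were called lower. Without single libraries Kif5b, not called, ran from -0.19 to 0.031, turning positive without cardiomyocyte library 1 or nonmyocyte library 3. The causes were not tested. Without single libraries the non-mitotic members called lower numbered 7 to 10, and the medians ran from -3.89 to -3.45 for mitotic and from -0.84 to -0.38 for non-mitotic kinesins. Thinning to the shallowest total ended the calls of Kif3a (adjusted p = 0.0595) and Kif24 (0.0734) and moved 4 mitotic folds by over 1.5 times, to -4.99 for Kif14, -4.70 for Kif11, -2.81 for Kif20b and -3.27 for Kif4; limma voom put Kif20b at -4.63. With the replicate number as a block 11 mitotic members were lower, and 9 non-mitotic members were higher and 9 lower, Kif24 losing its call (0.0550). The numbers were not taken as pairs, since the labels do not say which heart a library came from. Deviations of same-numbered libraries correlated at 0.162, 0.0504 and 0.1002. Cardiomyocyte libraries 1 and 3 correlated best with the nonmyocyte library of the same number, and cardiomyocyte library 2 with nonmyocyte library 3 (0.0609). Depth limits the mitotic folds, since 7 of 33 cardiomyocyte values were 0.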
